A study of Mus musculus with 12 samples.

Results

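The E2F factors E2f1, E2f2, E2f3, E2f7 and E2f8, the activators Mybl2 and Foxm1, the pocket protein gene Rbl1 and the MuvB core genes Lin9 and Lin54 were followed across 12 tumoursphere RNA-Seq libraries. These 10 genes were taken by symbol from a raw count table of 55573 genes, and all 10 were among the 13836 genes tested. The libraries came from 3 cell lines, named A1005, A1129 and A1471, and the tumours behind the lines were spindloid mammary tumours of MMTV-Metmt;Trp53fl/+;Cre mice, in which the mammary MMTV promoter drives a mutant Met transgene and Cre removes a floxed Trp53 allele. Tumourspheres, which are spheres grown in suspension, received for 24 h either the vehicle DMSO, 1 µM of Crizotinib (a Met kinase inhibitor), 1 µM of PD173074 (an FGFR kinase inhibitor) or both inhibitors together, here called the combination. Each treatment was represented by 1 library of each line, so n = 3 lines per treatment, and all 4 groups carried the same transgene and floxed allele. Each line stands for a tumour, and no line without the Met transgene or with intact Trp53 was analysed here. According to the paper, the mouse's own Met locus is amplified in this model. It describes transgene expression as kept in non-spindloid lines. Whether Crizotinib acted here on the transgene product or on endogenous Met was not tested.

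Cells commit to division when D- and E-type cyclin kinases phosphorylate the pocket proteins, which frees activator E2Fs to switch on the genes of DNA replication. Among the genes they switch on are the atypical E2Fs, which bind the same sites without a DP partner and shut the programme down again. The MuvB core is bound by pocket proteins in resting cells to form the repressive DREAM complex. It exchanges them for Mybl2 in S phase and then recruits Foxm1 to turn on the genes of mitosis. The activators among these factors are known as markers and drivers of proliferation in breast tumours.

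Library totals ran from 13031492 to 17750476 counts, and no pair of the 66 held identical values. The mesenchymal marker list, with 7 of 10 genes at 10 or more counts in every library, summed to 3506 to 5914 CPM (a count relative to the TMM-adjusted library size) with DMSO and to 3617 to 10695 CPM with the combination, while the epithelial list reached at most 74.6 and 52.3 CPM with Cldn7 and Krt5 at 0. Leukocyte markers summed to 4.54 to 31.5 CPM with DMSO and to 8.53 to 42.3 CPM with the combination, endothelial markers to at most 3.09 CPM and erythroid markers to at most 0.273 CPM in any library. The part of other cells in the results was not tested. Trp53, with 5.97 ± 1.82 CPM (SD, n = 3) in DMSO, gives no check on the deletion because every line carried it.

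The sequences just upstream of the starts of 5 members are shown because these genes include the largest and the smallest changes described here, and because E2F and MuvB complexes act at such sites. They are from RefSeq on GRCm38.p6, the build the files use as mm10, are written 5′ to 3′ on the strand of the gene, and lie outside annotated exons. Capitals mark matches, on either strand, to an E2F core or to the cell cycle homology region (CHR) letters TTTGAA, which LIN54 can bind. The E2f8 stretch is chr7:48881597-48881746 (minus strand), the Mybl2 stretch chr2:163054515-163054634 (plus), the Rbl1 stretch chr2:157204535-157204654 (minus), the E2f3 stretch chr13:29986064-29986183 (minus) and the E2f7 stretch chr10:110745209-110745358 (plus).
E2f8: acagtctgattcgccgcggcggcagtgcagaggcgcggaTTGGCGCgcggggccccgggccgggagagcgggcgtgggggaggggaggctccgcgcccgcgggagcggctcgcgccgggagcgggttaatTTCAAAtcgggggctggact
Mybl2: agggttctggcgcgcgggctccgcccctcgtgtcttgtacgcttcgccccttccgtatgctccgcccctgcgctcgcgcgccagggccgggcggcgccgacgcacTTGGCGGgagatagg
Rbl1: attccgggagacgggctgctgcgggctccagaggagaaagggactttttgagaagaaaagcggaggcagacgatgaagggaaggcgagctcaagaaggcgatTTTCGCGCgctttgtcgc
E2f3: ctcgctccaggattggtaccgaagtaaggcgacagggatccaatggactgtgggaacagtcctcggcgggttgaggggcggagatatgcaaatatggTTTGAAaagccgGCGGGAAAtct
E2f7: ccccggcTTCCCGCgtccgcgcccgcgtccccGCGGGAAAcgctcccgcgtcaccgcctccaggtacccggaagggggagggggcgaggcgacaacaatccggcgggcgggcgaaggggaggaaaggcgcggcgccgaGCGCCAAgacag

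Windows from 250 bases before to 50 bases after a start were given for 8 of the 10 genes (11 windows), without Foxm1 and Lin9. A strict E2F core (TTTCCCGC, TTTCGCGC, TTTGCCGC or TTTGGCGC, both strands) was present in the windows of 4 of the 8 genes, namely E2f2, E2f3, E2f7 and Rbl1. It was present in 4 of the 11 windows and in 2.26% of all 32851 promoter windows of that length. A looser core was chosen after the sequences were seen and lies within the strict one, being that core without its first T and with C or G as its last base. It was in 7 of the 11 windows, 1 for each of 7 genes, against 17.8% of all windows. TTTGAA was in 5 of the 11 windows, from 4 genes (E2f2, E2f3, E2f8 and Lin54), and in 17.9% of all windows. The related TTTAAA was in 0 of the 11 and in 13.2% of all. In E2f8 the core began 111 bases and the CHR letters 20 bases before the start, in Mybl2 the core began 15 bases before it, and in E2f7 there were 3 cores, at 223, 198 and 92 bases before it. All windows served as the background whatever their base composition, and a match in letters is not a measured binding site.

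The combination was compared with DMSO to ask how the regulators of the proliferation programme stood when Met and FGFR were blocked at once. Of the 10 regulators, 7 fell and none rose (edgeR quasi-likelihood test, adjusted p under 0.05), where 8.28% of all tested genes were called lower. E2f8 and Mybl2 moved furthest, E2f7, Foxm1 and Rbl1 followed, and Lin9 and Lin54 fell by about the same amount as each other. The activators E2f1, E2f2 and E2f3 were lower by smaller amounts and did not pass the test. When the cell line was added to the model as a block, all 10 were called lower, where 26.2% of tested genes were. The median log2 fold change was -1.37 over the 10 genes and 0.02 over all tested genes. In bulk libraries, fewer cycling cells and less of each transcript per cell cannot be told apart.

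**Figure D1:**
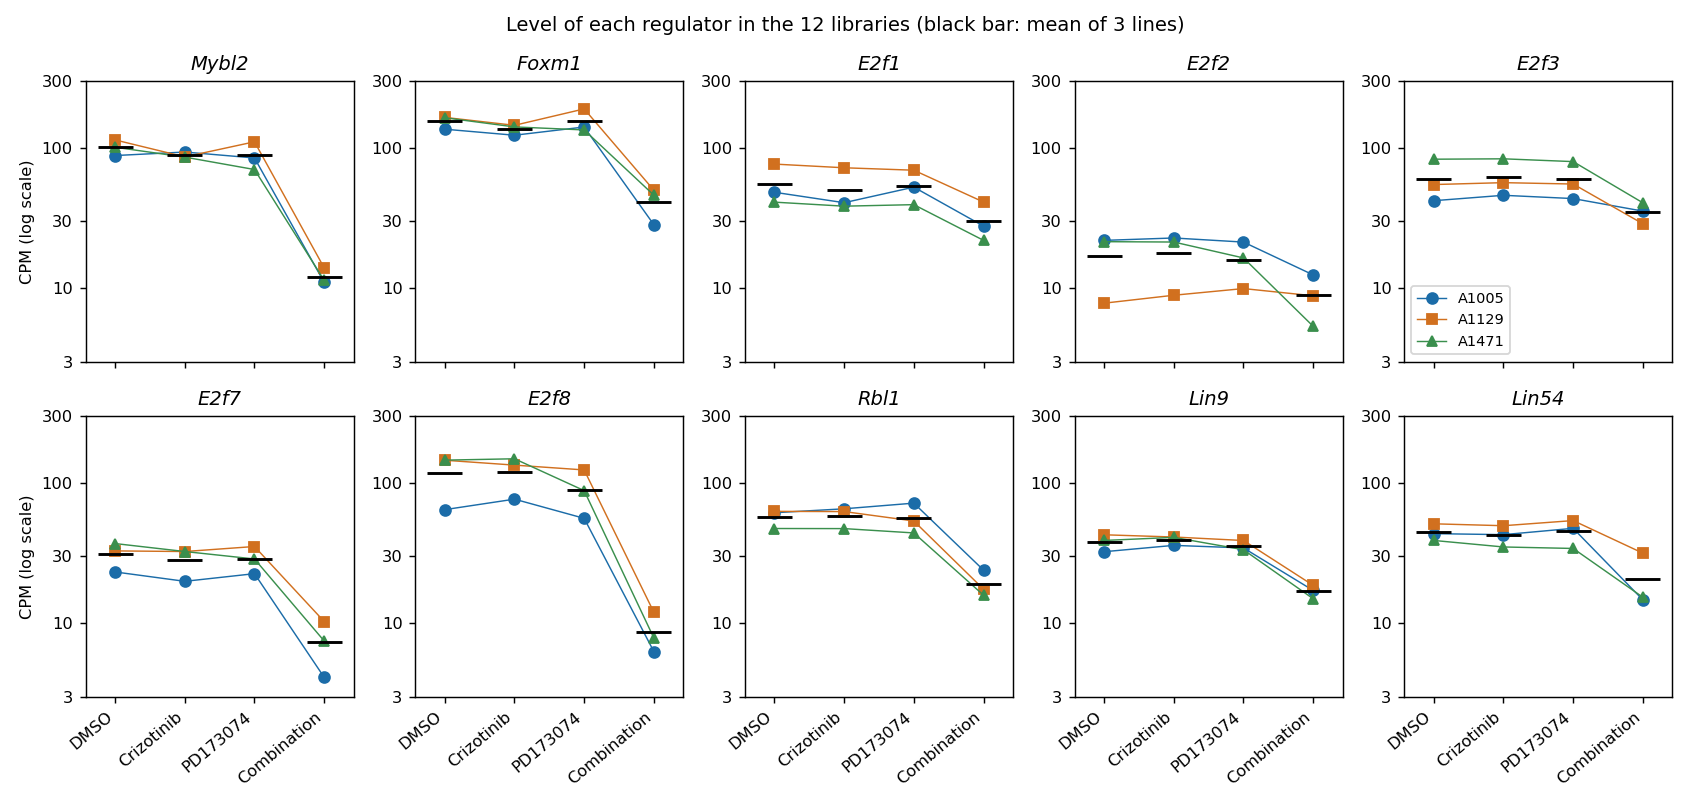
Levels of the 10 regulators in CPM (log axis) in each of the 12 libraries, by treatment, with 1 coloured marker per cell line and a black bar for the mean of the 3 lines. The combination libraries of Mybl2 sit between 11.01 and 13.98 CPM, below all 9 other libraries, whereas the Crizotinib and PD173074 points stay near those of DMSO.

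Mybl2, the MYB factor that joins MuvB in S phase (ENSMUSG00000017861, chromosome 2, 163054687 to 163084688, plus strand), was at 88.3, 114 and 101 CPM in the DMSO libraries of A1005, A1129 and A1471. In the combination libraries of the same lines, the order kept throughout, it was at 11.01, 13.98 and 11.4 CPM. The groups lay far apart, and the lines were close to each other within each. The log2 fold change was -3.06 (SE 0.20, adjusted p = 4.3e-05 by edgeR), 8.34-fold lower, and the lines gave -3.00, -3.03 and -3.15. Ordered by fold change, Mybl2 ranked 53 among the 1146 genes that fell.

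Foxm1, the forkhead factor of G2 and mitosis (ENSMUSG00000001517, chromosome 6, 128362967 to 128376146, plus strand), was counted at 136, 165 and 164 CPM with DMSO and at 28.4, 50.01 and 46.1 CPM with the combination. All 3 combination libraries lay below all 3 DMSO libraries, with A1005 the lowest in both. Its log2 fold change was -1.90 (SE 0.23, adjusted p = 9.2e-04 by edgeR). It shares 144 exon bases with Tex52, which had at most 4 counts in any library.

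E2f8, an atypical repressor (ENSMUSG00000046179, chromosome 7, 48866429 to 48881596, minus strand), stood at 64.5, 145 and 145 CPM in the DMSO libraries. With the combination it was at 6.28, 11.97 and 7.85 CPM. A1005 had less E2f8 than the other lines under both treatments, yet even its DMSO library was far above every combination library. The log2 fold change of -3.76 (SE 0.46, adjusted p = 9.8e-04 by edgeR), 13.6-fold lower, was the largest of the 10 and ranked 31 among the 1146 genes that fell. In every line E2f8 had the largest fall and Mybl2 the next. The antisense transcript Gm2788 overlaps 11.2% of the E2f8 exon bases and had 5 to 88 counts a library, against 104 to 2206 for E2f8, and without a stated strand setting reads there could belong to either.

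E2f7, the other atypical repressor (ENSMUSG00000020185, chromosome 10, 110745439 to 110787384, plus strand), was at 23.2, 32.8 and 36.9 CPM with DMSO and at 4.11, 10.3 and 7.47 CPM with the combination. The groups did not overlap, and A1005 was again the lowest line in both. E2f7 had a log2 fold change of -2.09 (SE 0.36, adjusted p = 0.0052 by edgeR), with -2.49, -1.67 and -2.31 in the lines.

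E2f1, the activator most tied to entry into S phase (ENSMUSG00000027490, chromosome 2, 154559407 to 154569892, minus strand), was at 48.3, 76.8 and 41.1 CPM with DMSO. The combination libraries held 27.7, 41.2 and 21.95 CPM. The groups just touched, because A1129 had the most E2f1 under every treatment and its combination library reached the level of A1471 with DMSO. Within the lines the changes were nearly equal, at -0.80, -0.90 and -0.90. The unpaired test did not pass (log2 fold change -0.87, SE 0.36, edgeR adjusted p = 0.138), and the test with the line as a block did (adjusted p = 7.5e-05).

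E2f3 (ENSMUSG00000016477, chromosome 13, 29906575 to 29986063, minus strand), a further activator, was at 42.1, 54.9 and 83.2 CPM with DMSO and at 35.5, 28.8 and 40.7 CPM with the combination. The ranges lay close but apart, and A1005 changed least. Its log2 fold change was -0.78 (SE 0.32, edgeR adjusted p = 0.142, and 0.0021 with the line as a block), and the lines gave -0.25, -0.93 and -1.03.

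E2f2 (ENSMUSG00000018983, chromosome 4, 136172394 to 136196057, plus strand), the least counted activator, was at 21.9, 7.83 and 21.5 CPM with DMSO and at 12.5, 8.84 and 5.36 CPM with the combination. The change was not alike in the lines: A1471 changed by -2.004, A1005 by -0.82 and A1129 by 0.18, the last with a 95% counting interval of -0.19 to 0.54. The groups overlapped, since A1129 had little E2f2 under any treatment. The log2 fold change was -0.94 (SE 0.51, edgeR adjusted p = 0.263), and the block gave an adjusted p = 0.0498.

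**Figure D2:**
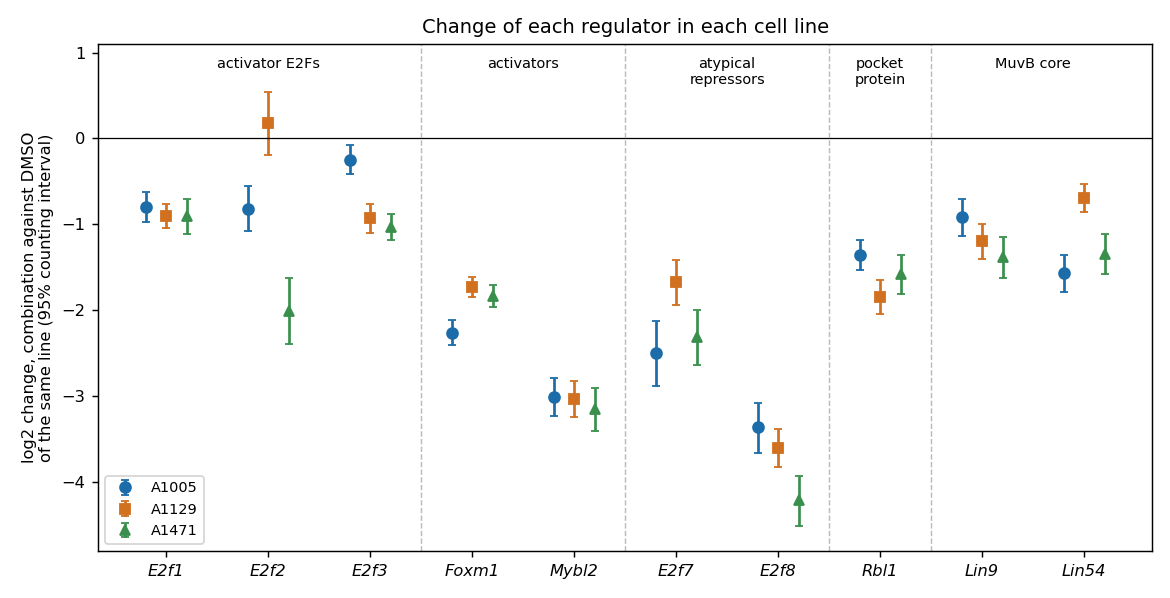
Log2 change of each regulator between the combination and DMSO library of the same cell line, with bars for the 95% counting interval, ordered by role. The atypical repressors E2f7 and E2f8 and the activators Mybl2 and Foxm1 lie below -1.6 in all 3 lines, and E2f1 stays between -0.80 and -0.90, while E2f2 in A1129 is at 0.18.

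Rbl1, which encodes the pocket protein p107 (ENSMUSG00000027641, chromosome 2, 157145893 to 157204534, minus strand), was at 61.3, 62.7 and 47.3 CPM with DMSO and at 23.9, 17.5 and 15.8 CPM with the combination. The groups lay apart. Its log2 fold change was -1.58 (SE 0.24, adjusted p = 0.0029 by edgeR).

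Lin9, a MuvB core subunit (ENSMUSG00000058729, chromosome 1, 180641150 to 180690694, plus strand), was at 32.3, 42.7 and 38.9 CPM with DMSO and at 17.1, 18.6 and 14.9 CPM with the combination. The combination libraries were all lower and were tightly grouped. Lin9 had a log2 fold change of -1.17 (SE 0.16, adjusted p = 0.0018 by edgeR).

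Lin54, the DNA-binding subunit of the same core (ENSMUSG00000035310, chromosome 5, 100441918 to 100500639, minus strand), was at 43.5, 51.1 and 38.9 CPM with DMSO and at 14.7, 31.6 and 15.3 CPM with the combination. The groups did not overlap, but A1129 kept more Lin54 than the other lines. Its log2 fold change was -1.12 (SE 0.31, adjusted p = 0.040 by edgeR). The call was lost with total-count scaling (adjusted p = 0.057), without the low-count filter (0.055), with only the DMSO and combination libraries (0.122), and without A1005 (0.177) or A1471 (0.237).

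In 8 of the 10 genes the combination libraries lay wholly below the DMSO libraries, which was so for 16.1% of all tested genes; E2f1 and E2f2 were the exceptions. All 3 lines were lower for 9 genes, against 31.9% of tested genes, E2f2 being the exception. The count of calls in the unpaired test moved with the lines used. It was 6 without A1005, 4 without A1129 and 1, Mybl2, without A1471, and with the line as a block it was 9, 10 and 8 in the same order. No share of all tested genes stands beside these smaller fits. Whether the regulators lost more calls than other genes did cannot be told from these counts.

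Levels between genes were compared as CPM per kilobase of merged exons. With DMSO the order was Foxm1 at 27.0 ± 2.87 (SD, n = 3), Mybl2 at 21.8 ± 2.79, E2f8 at 21.7 ± 8.56, E2f1 at 17.6 ± 5.98, E2f3 at 11.1 ± 3.87, Rbl1 at 9.53 ± 1.42, Lin54 at 7.64 ± 1.06, Lin9 at 5.24 ± 0.72, E2f2 at 3.499 ± 1.64 and E2f7 at 3.44 ± 0.78. Neighbours in that order overlapped in range, except Lin54 and Lin9. With the combination, E2f1 came first at 9.60 ± 3.13 CPM per kilobase, followed by Foxm1 at 7.21 ± 2.001 and E2f3 at 6.44 ± 1.09, and all other members were at 3.53 or less. E2f8 came ninth at 1.598 ± 0.54 and E2f7 last at 0.81 ± 0.34, which were the neighbours in that order that did not overlap. E2f8 thus moved from the upper levels of the group to near its foot.

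Activators were set against repressors as the mean log2 CPM of E2f1, E2f2 and E2f3 minus that of E2f7 and E2f8. This difference was -0.12, -1.10 and -0.81 in the DMSO libraries and 2.15, 0.97 and 1.13 in the combination libraries. The 2 groups did not overlap. Where the difference crosses 0 depends on the scale, since per kilobase of merged exons every library's value is higher by 0.68, so the change is what is read here. The groups averaged -0.68 ± 0.50 and 1.42 ± 0.64 (SD, n = 3), and the change within a line was 2.28, 2.07 and 1.93, on average 2.09 ± 0.17. All 5 E2F transcripts were lower on average, and the atypical pair was lower by more. The difference covers the E2F family only, and the activators Mybl2 and Foxm1, whose log2 fold changes were larger in size than those of E2f1, E2f2 and E2f3, are not in it. With Mybl2 and Foxm1 among the activators and Rbl1 among the repressors, a set chosen after the values were seen, the change within a line was 0.96, 1.08 and 0.91, on average 0.98 ± 0.09. With Crizotinib the difference was -0.16, -0.99 and -0.76, and with PD173074 it was 0.04, -0.97 and -0.43. Those single-agent values overlapped the DMSO values, and PD173074 gave a slightly higher value in each line, by 0.17, 0.13 and 0.38.

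**Figure D3:**
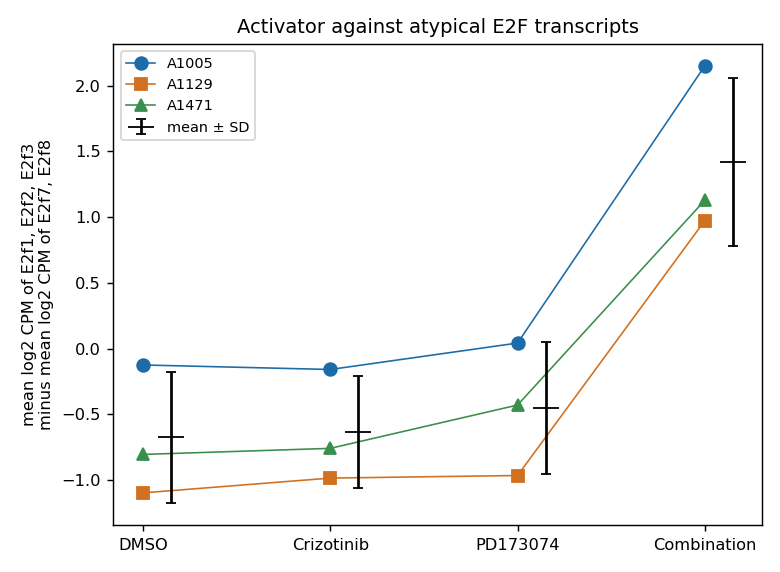
Mean log2 CPM of the activators E2f1, E2f2 and E2f3 minus that of the atypical repressors E2f7 and E2f8 in each library, by treatment, with 1 marker per cell line and, to the right of them, the mean ± SD of the 3 lines. The combination values lie between 0.97 and 2.15, above the 9 values of the other treatments.

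Crizotinib alone was compared with DMSO to ask whether blocking Met moved the regulators. None of the 10 was called, nor was any tested gene (0.0%), with or without the line as a block, and DESeq2 called none of the 10 and 1 gene in all (0.00356%), Iigp1, an interferon-inducible GTPase that is named because it was the call. At an unadjusted p under 0.05, edgeR gave 0 of the 10 and 18 genes in all, and with the block 0 and 258. Mybl2 was at 93.5, 86.4 and 86.1 CPM, Foxm1 at 123, 145 and 141 CPM and E2f8 at 76.6, 134 and 149 CPM with Crizotinib. All 10 genes overlapped their DMSO range, where 0.853% of tested genes lay wholly below it. The log2 fold changes ran from -0.19, in Mybl2, to 0.05, in E2f2. Their approximate 95% intervals were -0.55 to 0.16 and -0.95 to 1.05, so that moderate changes in either direction stay within what 3 lines allow.

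PD173074 alone also gave no call among the 10 genes or among all tested genes (0.0%) by edgeR, and 0 of the 10 and 307 genes in all were under an unadjusted p of 0.05. With the line as a block 2.14% of tested genes were called, none of them a member, and 1 member, E2f8, was under an unadjusted p of 0.05. DESeq2 called 27 genes (0.213%) and no member. E2f8 was at 55.9, 124 and 88.1 CPM with PD173074. It was lower than with DMSO in each line, by -0.21, -0.23 and -0.72 on the log2 scale, but the ranges overlapped and the change of -0.41 (SE 0.41) had an edgeR adjusted p = 1.0, or 0.236 with the block. Mybl2 was at 84.9, 111 and 70.2 CPM, its change (-0.19, SE 0.18) being mostly that of A1471 (-0.53). Foxm1 was at 141, 189.8 and 134 CPM, on average level with DMSO, and E2f1 at 52.6, 69.4 and 39.4 CPM. No member lay wholly below its DMSO range, against 3.07% of tested genes, and the 10 changes ran from -0.41 to 0.02.

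**Figure D4:**
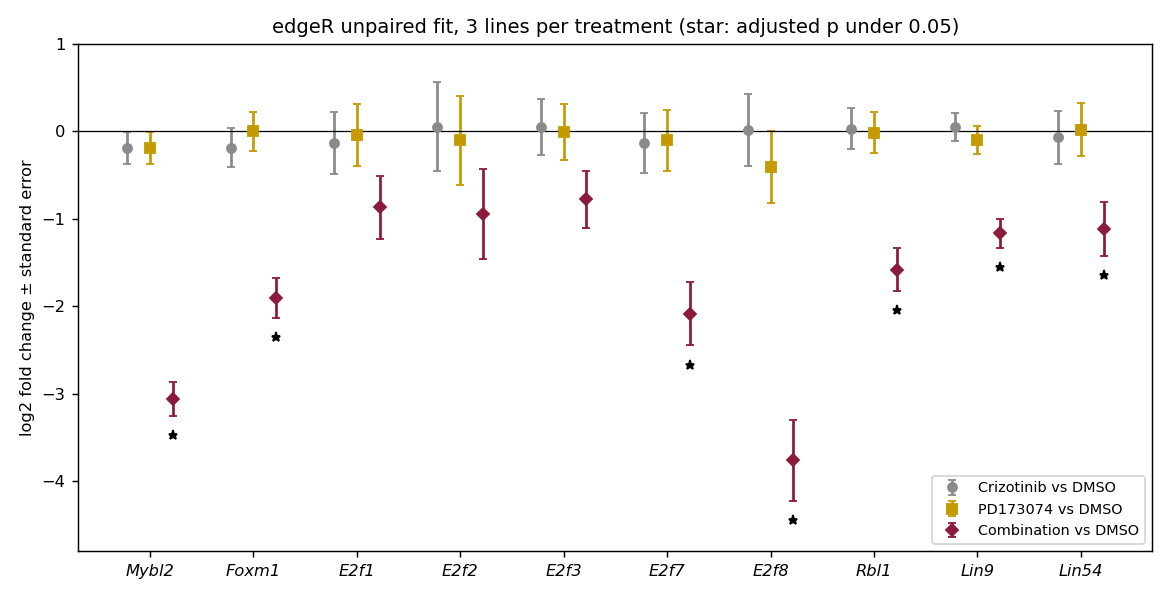
Log2 fold change ± standard error of each regulator against DMSO for Crizotinib, PD173074 and the combination (edgeR, unpaired, n = 3 lines per treatment), with a star where the adjusted p was under 0.05. Single-agent changes run from -0.41 to 0.05, and the 10 combination changes from -3.76 to -0.78, of which 7 carry a star.

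Against either agent alone, the combination asks what adding the other inhibitor did. These comparisons share the combination libraries with the one against DMSO. Compared with Crizotinib, 6 members fell (7.78% of tested genes were called lower), and all 10 did with the line as a block (26.0%). The 6 were Mybl2 (log2 fold change -2.87, edgeR adjusted p = 5.7e-05), Foxm1 (-1.72), E2f7 (-1.95), E2f8 (-3.78), Rbl1 (-1.61) and Lin9 (-1.22), and Lin54 was at -1.05 with an adjusted p = 0.053. Compared with PD173074, the same 6 members fell (3.93%), with Mybl2 at -2.87, Foxm1 at -1.90, E2f7 at -1.98, E2f8 at -3.36, Rbl1 at -1.56 and Lin9 at -1.07. With the block 9 were called lower (20.2%), all but E2f2, which had an adjusted p = 0.082. In each of these comparisons 8 members lay wholly below the single agent, against 16.1% and 12.7% of tested genes. By direction alone, all 10 were lower in all 3 lines, against 31.8% and 29.2%. For E2f2 in A1129 that direction was within counting error. Its log2 change there was -0.013 against Crizotinib (counting interval -0.36 to 0.34) and -0.17 against PD173074 (-0.52 to 0.18). Fitted on the 6 libraries of the 2 groups alone, the count against Crizotinib was 5, without E2f7 (edgeR adjusted p = 0.054), and against PD173074 it was 3, without E2f7 (0.094), Rbl1 (0.077) and Lin9 (0.084). Against Crizotinib the unpaired count was 6 without A1005, 4 without A1129 and 1 without A1471, and against PD173074 it was 6, 1 and 1. These smaller fits, too, are given without the share of all tested genes.

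Departure from additivity is the log2 change with the combination minus the sum of the changes with each agent, and a negative value means a level lower than the sum. It was called for 3 members, where 0.911% of tested genes were called negative. They were Mybl2 at -2.68 (SE 0.26, adjusted p = 0.0022 by edgeR), E2f8 at -3.37 (SE 0.60, adjusted p = 0.034) and Foxm1 at -1.72 (SE 0.31, adjusted p = 0.037). The lines gave -3.03, -2.58 and -2.39 for Mybl2, -3.40, -3.25 and -3.52 for E2f8 and -2.17, -1.74 and -1.33 for Foxm1. All 10 values were negative in all 3 lines, from -0.69 in E2f1 to the value of E2f8. Among the single lines the smallest departure was that of E2f2 in A1129, at -0.36. How many of all tested genes were negative in all 3 lines is not given, so this count does not set the members apart. With the line as a block 9 members were called, all but E2f2 (10.7% of tested genes), and DESeq2 called 6, where it called 3.05% of genes negative. Foxm1 lost its call when libraries were scaled by total counts only (edgeR adjusted p = 0.058) and without a filter on low counts (adjusted p = 0.053), which left Mybl2 and E2f8. Leaving out any 1 line left no member called in the unpaired test and 8, 7 and 6 with the block, without A1005, A1129 and A1471. The share of all tested genes called in these smaller fits is not given.

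The partners of these regulators did not move as 1 group. Of 13 further E2F, DP, pocket protein and MuvB genes, 3 fell with the combination against DMSO and none rose. Among all tested genes 8.28% were called lower. The median change of the 13 was 0.04 on the log2 scale. E2f4, the E2F that DREAM uses as a repressor, went from 98.0, 122 and 147 CPM to 55.4, 52.0 and 51.8 CPM, a log2 fold change of -1.20 (SE 0.21, adjusted p = 0.0052 by edgeR). The groups lay apart, and the lines became more alike. Tfdp1, the DP partner of the typical E2Fs, fell by 1.13 on the log2 scale (SE 0.25, adjusted p = 0.015 by edgeR). E2f6, an E2F that represses without pocket proteins, fell by 0.74 (SE 0.20, adjusted p = 0.039 by edgeR). The MuvB genes Lin37 (0.26), Lin52 (0.24) and Rbbp4 (-0.10) did not pass the test in either fit, whereas Lin9 and Lin54 of the same core fell.

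The other pocket protein genes, Rb1 and Rbl2, were higher on average with the combination, where Rbl1 was lower, but neither passed the unpaired test. Rb1, the retinoblastoma gene, was at 17.2, 23.0 and 20.5 CPM with DMSO and at 39.2, 157 and 27.7 CPM with the combination. Every combination library was above every DMSO library, but A1129 was several times above the others. The log2 fold change of 1.89 (SE 0.58) had an edgeR adjusted p = 0.057, and 0.0052 with the line as a block. Rbl2, which encodes the p130 protein of resting cells, was at 33.3, 40.7 and 34.2 CPM and at 37.6, 78.2 and 55.6 CPM, with overlapping groups and a log2 fold change of 0.66 (SE 0.28, adjusted p = 0.151, and 0.0066 with the block). With the block, 4 of the 13 partners were called lower, Mybl1 being the fourth, and 2 higher. Among all tested genes that fit called 26.2% lower and 3953 of 13836 higher, so these counts do not set the partners apart.

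Upstream of the pocket proteins, 11 of 13 cyclin D and E kinase genes and their inhibitors were tested. With the combination 4 fell and none rose (5 and 2 with the block). Among all tested genes 8.28% were called lower, and with the block 26.2% lower and 3953 of 13836 higher. The same shares apply to the lists below for this comparison. Ccnd1, the D-type cyclin induced by growth factors, went from 709, 1217 and 1060.1 CPM to 33.9, 17.1 and 25.5 CPM. That was the largest change of the list, at -5.29 (SE 0.36, adjusted p = 4.6e-05 by edgeR), and the groups were far apart. PD173074 alone gave 440.1, 658 and 517 CPM, below every DMSO library, with a log2 fold change of -0.89 (SE 0.30, adjusted p = 1.0, and 0.129 with the block). Cdkn2d (-1.73), Cdk2 (-1.09) and Ccnd3 (-0.98) were the other falls. The inhibitor Cdkn2b was at 1.03 (adjusted p = 0.130 by edgeR, and 1.2e-04 with the block), and Cdkn1a, a p53 target, at -0.42 (adjusted p = 0.522).

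Of 10 genes known as targets of ERK signalling, 8 fell with the combination (9 with the block), and the median change was -2.96 on the log2 scale. Etv5 (-4.99), Dusp6 (-5.03) and Spry4 (-5.98) had the largest changes. With PD173074 alone their median was -0.88 with no call in the unpaired fit, and with the block 4 were lower, Etv5 (-1.09), Etv4 (-1.11), Dusp6 (-1.08) and Spry4 (-0.99). Among all tested genes the fit with the block called 72 of 13836 lower. Egr1, an immediate early gene, was the only one of the 10 above 0, at 1.83 (adjusted p = 0.101 with the block), with 59.8 to 105 CPM against 7.39 to 30.4 CPM with DMSO. No cell cycle regulator of the 10 was called in that fit.

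Downstream, the G1/S genes that E2Fs are known to drive fell in 26 of 30 cases with the combination against DMSO, and none rose (30 and 0 with the block). The median log2 fold change was -1.92. Tk1, a thymidine salvage kinase, went from 119 ± 10.02 to 8.18 ± 6.28 CPM (-3.86 on the log2 scale, SE 0.49; SD, n = 3), Rrm2, a ribonucleotide reductase subunit, from 243 ± 38.6 to 27.9 ± 11.1 CPM (-3.12, SE 0.31), and the replication helicase subunit Mcm3 from 280.5 ± 52.5 to 73.8 ± 9.75 CPM (-1.93, SE 0.19). Slbp, Chaf1b, Mcm7 and Cdc25a were between -1.31 and -0.74 and did not pass the test. The cyclin Ccne1 was also among the falls, at -1.52 (adjusted p = 0.046 by edgeR).

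All 30 G2/M genes known as targets of MuvB, Mybl2 and Foxm1 fell with the combination, by a median of -2.16 on the log2 scale and a range of -2.78 to -1.72. Aurkb, the mitotic kinase, went from 92.3 ± 17.9 to 13.4 ± 2.30 CPM, Birc5, its partner survivin, from 139 ± 5.77 to 20.8 ± 1.97 CPM, and the topoisomerase Top2a from 1066 ± 208 to 182 ± 12.97 CPM (SD, n = 3). E2f8 and Mybl2 lay beyond the lowest of these 30 genes, and E2f1, E2f2, E2f3, Rbl1, Lin9 and Lin54 above the highest. With PD173074 none of the 60 target genes was called in either fit, but all 30 G2/M genes were below 0, with a median of -0.27, as were 24 of the 30 G1/S genes, with a median of -0.11, where the median of all tested genes was 0.00. With Crizotinib the medians were -0.06 and -0.09, with 27 and 26 genes below 0. Against PD173074, the combination lowered 28 G2/M and 24 G1/S genes, where 3.93% of tested genes were called lower. Against Crizotinib it lowered 30 and 26, where 7.78% were. Departure from additivity was called for 12 of the G2/M and 15 of the G1/S genes, where 0.911% of tested genes were called negative. With the block it was called for all 60, where 10.7% were.

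**Figure D5:**
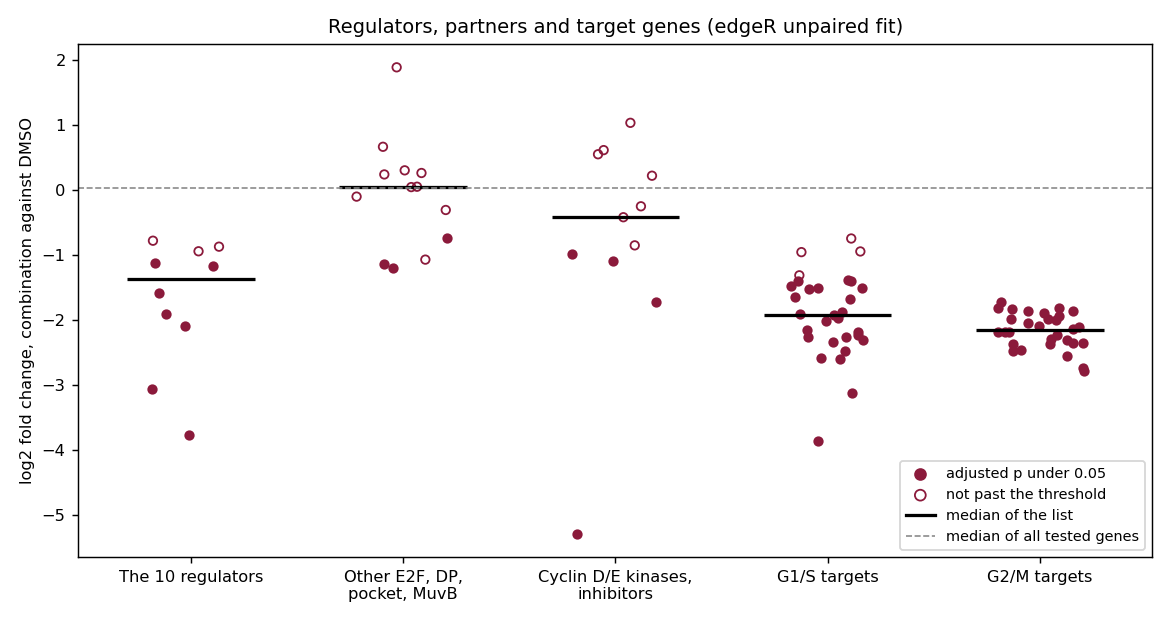
Log2 fold change, combination against DMSO, of the 10 regulators, of 13 partner genes, of 11 cyclin kinase genes and inhibitors and of 30 G1/S and 30 G2/M target genes, 1 point per gene, filled where the edgeR adjusted p was under 0.05. Black bars are list medians (-1.37, 0.04, -0.42, -1.92 and -2.16), and the dashed line is the median of all tested genes, 0.02.

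Of 5 genes that degrade proteins of this pathway, 4 fell with the combination against DMSO. Fbxo5 (Emi1), an inhibitor of the anaphase-promoting complex, stood at 34.5 ± 6.04 CPM with DMSO and 4.76 ± 1.57 CPM with the combination (-2.86 on the log2 scale, SE 0.27). Cks1b (-1.85) and Skp2 (-1.73), which act together on Cdkn1b, and Fzr1 (-0.79), the activator of that complex in G1, were the others, and Cdc27 was at -0.42 (adjusted p = 0.052 by edgeR).

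To see which genes ran closest to each regulator, log2 CPM was centred within each line and Pearson's r was taken over the 12 libraries. These libraries share the treatments, so a high r mostly describes the contrast between the combination and the rest. Among the 10 themselves the 45 coefficients ran from 0.70 to 0.996, with a median of 0.95, and the 9 that involve E2f2 ran from 0.70 to 0.81. The closest genes to Mybl2 were Incenp (0.998), Cenph (0.997) and Nup133 (0.997), the first a subunit of the Aurkb complex and the next a kinetochore protein. Rrm1, Polq and Mcm2 were closest to Foxm1 (0.994 to 0.996), Sapcd2, Ccnf and Espl1 to E2f8 (0.998 each), and Gtse1, Mcm8 and Kif11 to E2f7 (0.997 to 0.999). E2f1 was nearest to Dscc1 (0.993), Cab39l (0.990) and Mms22l (0.989), E2f3 to Seh1l, Ccne1 and Dbr1 (0.992 to 0.993), and E2f2 to Idi1 (0.987), Arfgef1 (0.985) and Pkn2 (0.979). Cbx3, Nsl1 and Traip stood nearest to Rbl1 (0.992 to 0.995) and Diaph3, Mki67 and Aspm to Lin54 (0.991 to 0.993). The genes nearest to Lin9 included its fellow regulators Tfdp1 (0.997) and E2f8 (0.996), with Suv39h2 (0.995).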

How the data were processed

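Raw gene counts of 12 libraries (3 cell lines, 4 treatments, sequenced on a NextSeq500) were deposited by the authors in 1 table, aligned with STAR to mm10, with bcl2fastq and HTSeq also named in the submitters' processing notes. Versions, the annotation release and the strand setting were not given in the sources used here. Genes were kept by filterByExpr (minimum count 10), which left 13836 of 55573 genes, holding at least 99.8% of the counts of each library, and were normalised by TMM. All 12 libraries were fitted without a block (edgeR 4.0.16, quasi-likelihood test, Benjamini-Hochberg adjusted p under 0.05, R 4.3.3). That follows the unpaired analysis the study states, although the design is paired, each line having received all 4 treatments. The spread is that between lines. CPM use TMM library sizes, log2 CPM a prior count of 2, and kilobases merged GENCODE exons. The 95% intervals for single libraries cover counting error only. Those of fold changes multiply the standard error by the factor of a normal distribution. They are approximate and somewhat narrower than the test itself would give.

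Same-numbered libraries are the same cell line, and their deviations from the group means correlated in all 18 pairs (mean r 0.871, lowest 0.766). The line as a replicate block is therefore given wherever it changed a call. Over 36 pairs of different lines the mean r was -0.422. That negative value follows from taking deviations from the mean of 3 lines and is no separate evidence of pairing. Alternatives were that block, DESeq2 1.42.0, other size factors and filters, another prior count, only the groups compared, and leaving out each line. In simulated data for the combination against DMSO, 200 genes were given a log2 fold change of 2. Every simulated gene had the same fixed dispersion (spread beyond counting error), which was not taken from the data. With the real line differences, the unpaired test found 150 and the block 200, with 0 and 6 false calls among 13661 genes. Without line differences each found 200, with 11 and 12 false calls among 13500 genes. DESeq2 found 177 with the line differences and 200 without them, with 0 and 22 false calls among 13836 genes. How these fits perform where the lines respond unequally, or at the dispersion of each real gene, was not tested. The members, gene lists and tests were chosen with earlier results of these data known. Named genes were all members, the genes of lists under 15 genes, the 3 highest and 3 most changed genes of each other list, and the 3 nearest genes of each member. Cdc25a, Chaf1b, Mcm7 and Slbp, the G1/S genes without a call, and Iigp1 were named after their values were seen.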

Additional observations from a re-analysis of the deposited data

Results flagged for a closer look

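Between lines, 3 regulators moved in opposite directions under a single agent by more than their 95% counting intervals. With PD173074, Foxm1 changed by 0.20 on the log2 scale in A1129 and by -0.29 in A1471, and Rbl1 by 0.23 in A1005 and by -0.23 in A1129. With Crizotinib, E2f8 changed by 0.25 in A1005 and by -0.12 in A1129. Each value compares 1 library with 1 library, the counting intervals hold no culture-to-culture spread, and the differences between lines were not tested. With 3 libraries a group, no search for single outlying libraries was made.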

How the results depend on the processing

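Of 770 recomputed member values, 638 kept their direction and side of the threshold, 59 passed it newly, 45 no longer passed and 28 changed sign, all 28 in single-agent changes near 0. Foxm1 with PD173074 (-9.2e-05) became 0.0019 with DESeq2, 0.0019 with total counts, 0.0039 without a filter, 0.0083 with at least 10 counts in every library and 0.0025 with only the groups compared. Leaving out 1 line, changes with Crizotinib ranged from -0.036 to 0.098 (E2f8) and from -0.0013 to 0.045 (Rbl1). With PD173074 they ranged from -0.12 to 0.15 (Foxm1), -0.11 to 0.049 (E2f1), -0.19 to 0.088 (E2f2), -0.023 to 0.048 (E2f3), -0.23 to 0.063 (E2f7), -0.17 to 0.10 (Rbl1) and -0.028 to 0.12 (Lin54). With the line as a block and 1 line left out, those that changed sign were E2f8 (-0.031) and Rbl1 (-0.00069) with Crizotinib, and with PD173074 Foxm1 (0.14), E2f1 (0.041 and 0.010), E2f2 (0.15), E2f3 (0.048), E2f7 (0.048), Rbl1 (0.070 and 0.018) and Lin54 (-0.053 and -0.018). The cause of these sign changes was not tested.

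The number of regulators called lower ranged from 1 to 6 without 1 line in each combination comparison and was 0 for departure from additivity. With only the groups compared it was 5 against Crizotinib and 3 against PD173074. With the replicate block (the pairing by line) it was 10 against Crizotinib and 9 for departure, and leaving out a line in addition gave 9, 10 and 9, and 8, 7 and 6. DESeq2 gave 6 for departure. Leaving out a line or using only the groups compared fits fewer libraries, and the cause of the other shifts was not tested. The share of all tested genes called in those smaller fits is not given. Their counts do not show whether the regulators lost more calls than other genes. The activator minus repressor difference with the combination ranged from 1.05 to 1.64 without 1 line. Its change from DMSO was 2.09, 2.003 to 2.17 without 1 line, and 0.98 with Mybl2, Foxm1 and Rbl1 included. Departure could not be fitted with only the groups compared, since it uses all 4. The block changed no further call among the members than those given with the results. Precision is limited by 3 lines and by counts as low as 71 (E2f2).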
